A study of Mus musculus with 22 samples.

Results

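The comparison of exposed with control microglia after an inflammatory challenge took 7 of the 22 sequenced libraries, chosen by their labelled group. Ctrl-LPS (n = 4, libraries 1 to 4) came from male C57BL/6J mice that received vehicle injections in young adulthood, vehicle in the later treatment arm and then lipopolysaccharide (LPS). GW-LPS (n = 3, libraries 2, 3 and 4) came from mice that received pyridostigmine bromide at 0.7 mg/kg and permethrin at 200 mg/kg once a day for 10 days, from an age of 10 weeks, and the same later vehicle and LPS. Pyridostigmine bromide inhibits acetylcholinesterase, permethrin is a pyrethroid insecticide, and the pair models the chemicals of Gulf War service. All 7 libraries came from mice aged to 17.5 months and taken 24 hours after a single LPS dose of 0.33 mg/kg, which is shed from the envelope of Gram-negative bacteria and stimulates myeloid cells. The question was whether an exposure more than a year earlier altered the microglial response to LPS. The same exposure contrast without LPS (GW-PBS, n = 4, and Ctrl-PBS, n = 4) shares no library with it and is given beside it. Exposed mice given cannabidiol (CBD) at 30 mg/kg, daily for 28 days and then 2 weeks of maintenance, gave GW-CBD-PBS (n = 3) and GW-CBD-LPS (n = 4). Both groups enter the shared fit, and some levels of GW-CBD-LPS are quoted. The cells were sorted as live CD45mid, CD11b+ and CD11a- cells, and since no label ties a library to a single mouse, each p-value reflects only how these libraries vary.

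Microglia are the resident macrophages of the brain. LPS binds Toll-like receptor 4, which signals through MyD88 to NF-kB for cytokines and chemokines, and through TRIF to interferon regulatory factors for type I interferon. Secreted interferon acts back through its receptor and the kinases Jak1 and Tyk2 to assemble a transcription factor complex with Irf9, which binds GAAA-rich elements before interferon-stimulated genes. A systemic LPS injection lowers the homeostatic genes of microglia, such as the purine receptor gene P2ry12, and raises these inflammatory and interferon programmes.

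The 7 libraries held 32491861 to 38831070 counts, and 14036 to 14499 genes had at least 10 counts in each. The homeostatic list, which holds the defining microglial genes, summed to 76327 to 89823 CPM (counts scaled to a common library total) in Ctrl-LPS and 69581 to 81681 CPM in GW-LPS. Markers of other cells were far lower. Neuron markers summed to 1.55 to 4.86 CPM over both groups, with 7 of 9 under 1 CPM in every library, and T and NK cell markers to 0.630 to 4.09 CPM, with 11 of 13 under 1 CPM and 3 of them at 0 counts in all 7. Astrocyte markers gave 181 to 318 CPM, oligodendrocyte markers 243 to 360.4 CPM, endothelial and mural markers 28.7 to 48.5 CPM, border macrophage markers 346 to 706 CPM, B cell markers 204 to 736 CPM and erythroid markers 66.5 to 378 CPM.

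Some libraries stood apart, and not along the group labels. Neutrophil markers summed to 3114 CPM in Ctrl-LPS library 1 and to 504 to 856 CPM in the other 6, and monocyte markers to 827 CPM against 223 to 335 CPM. The neutrophil calprotectin gene S100a8 stood at 469, 14.1, 4.703 and 14.1 CPM in Ctrl-LPS libraries 1 to 4 and 2.68, 45.8 and 13.7 CPM in GW-LPS libraries 2, 3 and 4. The heat shock list (chaperones) summed to 6798 CPM in Ctrl-LPS library 3 and to 7052 and 6447 CPM in GW-LPS libraries 2 and 4, against 3374 to 3732 CPM in the other 3 Ctrl-LPS libraries and 2472 CPM in GW-LPS library 3. The same 3 libraries were high for the stress of the endoplasmic reticulum (5758 to 6310 CPM against 3378 to 4282 CPM) and low for glucocorticoid targets. Klf9, a glucocorticoid-induced transcription factor gene, stood at 41.8, 34.1, 4.52 and 43.2 CPM in Ctrl-LPS libraries 1 to 4 and 1.76, 95.02 and 6.19 CPM in GW-LPS libraries 2, 3 and 4. Its level in GW-LPS library 3 was the highest of the 7 and in GW-LPS library 2 the lowest. Fkbp5, a chaperone gene of the glucocorticoid receptor, followed at 401, 497, 167 and 485 CPM in Ctrl-LPS libraries 1 to 4 and 168, 786 and 292 CPM in GW-LPS libraries 2, 3 and 4, and the chaperone gene Hspa8 ran the other way at 2407, 1950, 4022 and 2013 CPM in Ctrl-LPS libraries 1 to 4 and 3341, 1305 and 3170 CPM in GW-LPS libraries 2, 3 and 4. Counts of GW-LPS libraries 2 and 4 differed by a chi-square of 18.8 per degree of freedom, against 151 and 113 for either of them with library 3 and 61.4 to 170 between Ctrl-LPS libraries. Results below are therefore given with the libraries on which they depend, where this was examined.

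**Figure D1:**
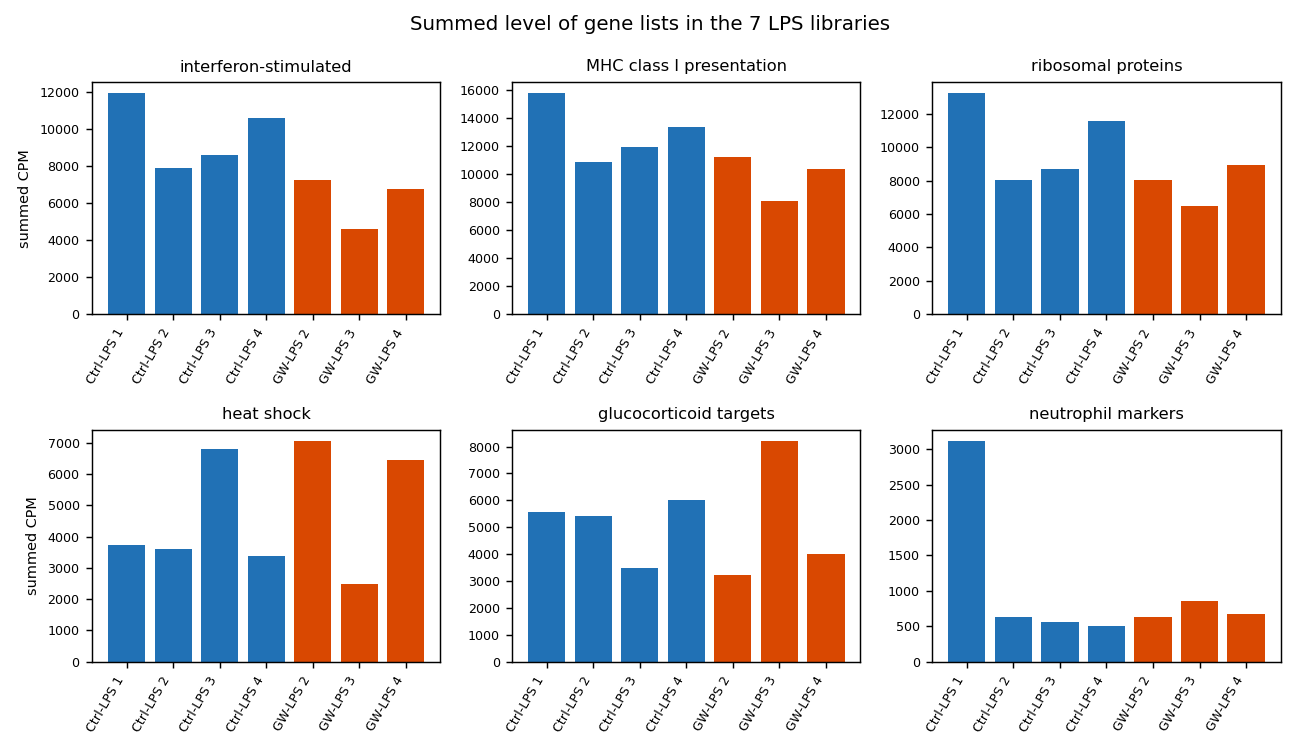
Summed CPM (y axis, linear, from 0) of 6 gene lists in each of the 4 Ctrl-LPS (blue) and 3 GW-LPS (orange) libraries. Interferon-stimulated genes were lower in each GW-LPS library than in each Ctrl-LPS library, the heat shock and glucocorticoid lists split both groups, and neutrophil markers were high in Ctrl-LPS library 1.

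Over 16554 genes tested, none reached an adjusted p under 0.05 in edgeR (0.0%), where the minimum was 0.106. At an unadjusted p under 0.05 stood 2266 genes (13.7%), of which 1234 were lower (7.45%) and 1032 higher (6.23%) in GW-LPS. Every GW-LPS library lay below every Ctrl-LPS library for 1033 genes (6.24%) and above it for 1041 genes (6.29%). Other tools called genes. DESeq2 called 135 of the 13328 genes to which it gave an adjusted p (1.01%), 103 lower (0.773%) and 32 higher (0.24%). The limma voom fit with quality weights called 324 (1.96%), 243 lower (1.47%) and 81 higher (0.489%). The median log2 fold change of all genes tested was -0.01. The median difference varied with transcript length. The median over protein-coding genes went from -0.28 in the quartile with the shortest exonic length (median 1.92 kb) through -0.04 and 0.12 to 0.18 in the longest (median 9.04 kb). Of the genes at an unadjusted p under 0.05, the shortest quartile held 552 lower and 47 higher, and the longest 98 lower and 398 higher. What part transcript length has in the list results was not tested, and medians by length are given for some of the lists.

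The lower side was led by genes that interferon induces. The gene lists overlap in part, so a gene such as B2m or C1qa counts in each list that holds it. Of the 46 genes of the interferon-stimulated list, 32 were lower at an unadjusted p under 0.05 and none higher, against 7.45% and 6.23% of all genes. All 46 had a log2 fold change below 0 (50.9% of all genes), with a median of -0.85, and in 22 of 46 every GW-LPS library lay below every Ctrl-LPS library (6.24% of all genes). None passed in edgeR, while DESeq2 called 21 and limma voom 22, all lower. The list's sum was 11940, 7916, 8586 and 10620 CPM in Ctrl-LPS libraries 1 to 4 and 7229, 4621 and 6781 CPM in GW-LPS libraries 2, 3 and 4, without overlap. The PBS groups lay at 3987 to 4658 (Ctrl-PBS) and 4305 to 5314 CPM (GW-PBS). Ctrl-LPS library 3, with high heat shock genes, had 8586 CPM, above GW-LPS libraries 2 and 4 of the same kind. Among the libraries with low heat shock genes, GW-LPS library 3 (4621 CPM) lay below Ctrl-LPS libraries 1, 2 and 4. Because the sums do not overlap, any split of the libraries gives this order, so these orders do not test a part of heat shock state. With the heat shock sum as a covariate 33 of 46 were lower at an unadjusted p under 0.05, and without Ctrl-LPS library 1, whose neutrophil markers were high, 28. By exonic length the list's median was -1.33 in the shortest length quartile, -0.91 in the second, -0.45 in the third and -0.49 in the longest, and all members with a length were below 0 in each. In bulk libraries fewer cells of a responding type and less RNA per cell cannot be told apart.

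Rtp4, which encodes an interferon-induced chaperone of membrane receptors, had the smallest p. Its level was 267, 98.3, 114 and 164 CPM in Ctrl-LPS and 66.8, 42.2 and 36.2 CPM in GW-LPS. Every GW-LPS library was below every Ctrl-LPS library. The log2 fold change was -1.73 ± 0.31 (SE) with an adjusted p of 0.106, and edgeR without a filter on low counts called it (adjusted p = 0.0246). Oasl2, an antiviral oligoadenylate synthetase-like gene, stood at 237, 78.5, 87.2 and 128 CPM in Ctrl-LPS and 47.6, 40.2 and 28.04 CPM in GW-LPS. It gave -1.78 ± 0.34 (adjusted p = 0.106), again without overlap. Usp18, the protease that removes Isg15 from proteins and damps interferon receptor signalling, stood at 157, 48.3, 72.3 and 89.5 CPM in Ctrl-LPS and 42.5, 25.04 and 23.6 CPM in GW-LPS. Its difference was -1.60 ± 0.33 (adjusted p = 0.106). Xaf1, a pro-apoptotic interferon target, stood at 119, 51.3, 56.3 and 92.7 CPM in Ctrl-LPS and 42.1, 26.99 and 27.8 CPM in GW-LPS, a difference of -1.30 ± 0.27 (adjusted p = 0.106). In each of these 4 genes Ctrl-LPS libraries 1 and 4 were the highest 2 of the 7.

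Ifit3, an interferon-induced antiviral RNA-binding partner, stood at 129, 40.7, 48.6 and 65.01 CPM in Ctrl-LPS and 39.7, 19.99 and 23.5 CPM in GW-LPS. Library 2 of GW-LPS lay just under library 2 of Ctrl-LPS (-1.35 ± 0.33, adjusted p = 0.173). Isg15, a ubiquitin-like modifier, stood at 51.2, 9.69, 17.97 and 23.9 CPM in Ctrl-LPS and 12.3, 6.203 and 8.102 CPM in GW-LPS, where GW-LPS library 2 overlapped Ctrl-LPS library 2 (-1.53 ± 0.39, adjusted p = 0.184). Rsad2, which encodes the antiviral enzyme viperin, gave 28.7, 8.08, 9.22 and 12.5 CPM in Ctrl-LPS and 7.03, 5.77 and 3.65 CPM in GW-LPS and -1.41 ± 0.34. The interferon regulatory factor gene Irf7 stood at 231, 58.5, 77.8 and 115 CPM in Ctrl-LPS and 53.5, 40.4 and 31.02 CPM in GW-LPS (-1.53 ± 0.38), and the membrane restriction factor gene Ifitm3 at 1221, 224, 292 and 562 CPM in Ctrl-LPS and 208, 99.6 and 142 CPM in GW-LPS (-1.94 ± 0.47). Ifitm3 in GW-LPS library 2 and in Ctrl-LPS library 2 differed by little, and library 1 of Ctrl-LPS held the top value of both genes. Zbp1, a sensor of Z-form nucleic acid, had a difference of -1.66 ± 0.40, Lgals3bp, a secreted galectin-binding protein gene, -1.05 ± 0.24, Ifi35 -0.70 ± 0.16, Slfn2, a schlafen gene needed for immune cell quiescence, -0.93 ± 0.25 and Ly6e, a GPI-anchored restriction factor gene, -0.65 ± 0.22. Also among the 12 lower genes with the smallest p were Phf11d (-0.88 ± 0.19), Phf11b (-0.93 ± 0.21), Epsti1 (-0.64 ± 0.13) and the nuclear body gene Sp110 (-0.61 ± 0.13), all interferon-induced. Phf11b and Phf11d are close copies of each other, so the split of their reads is uncertain.

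**Figure D2:**
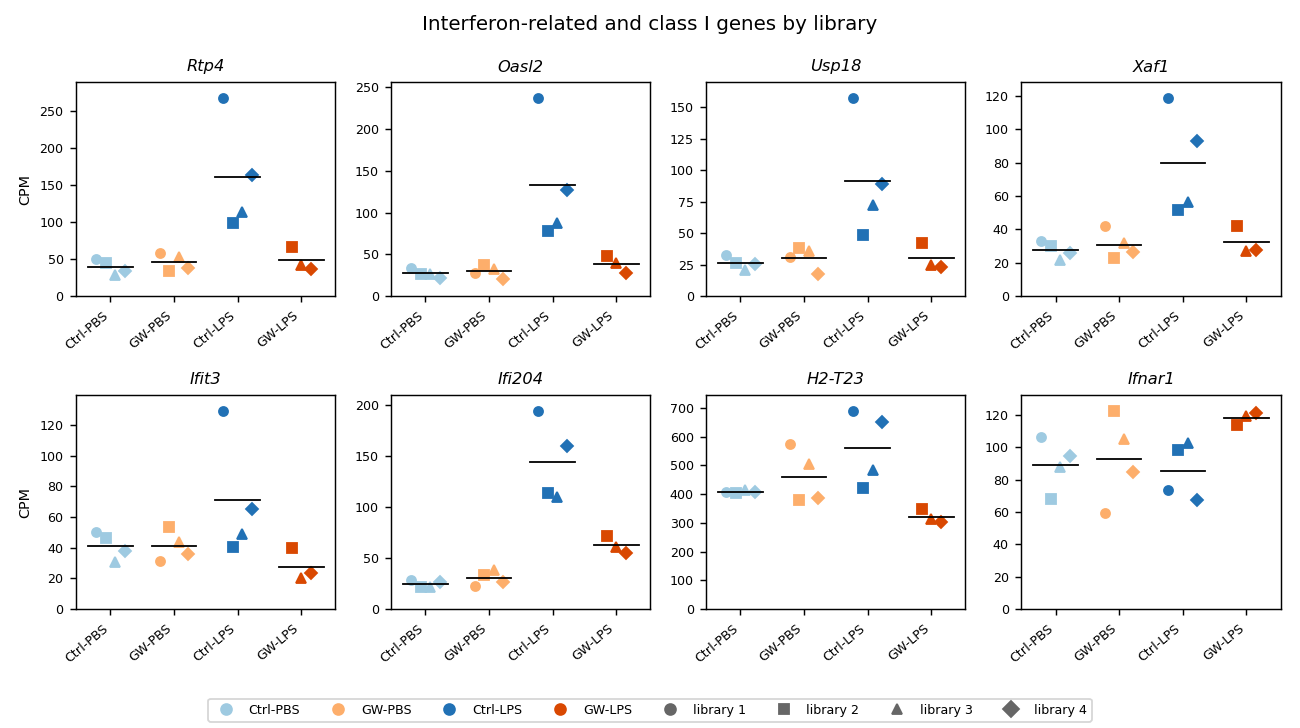
CPM (y axes, linear, from 0) of 8 interferon-related genes in the 15 libraries of the 4 groups without CBD (x axis); marker shape gives the library number and the black line the group mean. For Rtp4, Oasl2, Usp18, Xaf1, Ifit3, Ifi204 and H2-T23 the 3 GW-LPS libraries lie below all 4 Ctrl-LPS libraries, and for Ifnar1 they lie above.

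Genes that carry the interferon signal were mixed. Irf9, the DNA-binding subunit of the interferon complex, was -0.27 ± 0.12 (unadjusted p = 0.0372), from 143, 162, 152 and 163 CPM in Ctrl-LPS and 141, 124 and 121 CPM in GW-LPS. Of 12 receptor and signalling genes none was lower and 3 were higher at an unadjusted p under 0.05, with a median of 0.06. Those 3 were the receptor subunit gene Ifnar1 (0.46 ± 0.21), Jak1 (0.48 ± 0.21) and Jak2 (0.63 ± 0.28). Ifnar1 stood at 73.6, 98.5, 102 and 67.7 CPM in Ctrl-LPS and 114, 119 and 121 CPM in GW-LPS, and Jak1 at 239, 316, 280.5 and 264 CPM in Ctrl-LPS and 342, 461 and 349.6 CPM in GW-LPS. In all 3 genes every GW-LPS library was above every Ctrl-LPS library (6.29% of all genes), and none passed (adjusted p = 0.353, 0.344 and 0.351). Without Ctrl-LPS library 1 or 4, or without GW-LPS library 3, none of the 12 was higher at an unadjusted p under 0.05. At that threshold 1 was lower without Ctrl-LPS library 1, 2 were without GW-LPS library 3, and 3 were with limma voom. By length the list's median was -0.11 over 6 genes in the second quartile, 0.55 over 2 in the third and 0.26 over 4 in the longest.

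The nucleic acid sensors of the Ifi200 family and the guanylate-binding GTPases, both interferon-induced, are held in lists of their own. Of 11 Ifi200 and DNA sensor genes tested 6 were lower (54.5%) at an unadjusted p under 0.05, against 7.45% of all genes. All 11 were below 0 (50.9% of all genes), with a median of -0.79. Without Ctrl-LPS library 1, 3 were lower at that threshold (median -0.62). Ifi204, the mouse counterpart of the DNA sensor IFI16, stood at 194, 113, 109 and 159 CPM in Ctrl-LPS and 71.3, 60.6 and 54.8 CPM in GW-LPS. The groups did not overlap (-1.21 ± 0.24, adjusted p = 0.106). Ifi211 stood at 31.3, 9.08, 8.59 and 12.99 CPM in Ctrl-LPS and 5.67, 5.69 and 5.61 CPM in GW-LPS (-1.45 ± 0.35), with the 3 GW-LPS libraries nearly equal, and Ifi213 was -1.0004 ± 0.34 with GW-LPS library 3 inside the Ctrl-LPS range. These family members are similar in sequence, so their read shares are uncertain. Of 16 GTPase genes 4 were lower and none higher at an unadjusted p under 0.05 (median -0.39). Gbp2, which coats intracellular pathogens, stood at 74.2, 34.8, 32.9 and 35.5 CPM in Ctrl-LPS and 24.1, 18.7 and 23.6 CPM in GW-LPS (-1.0004 ± 0.23), Igtp was -0.54 ± 0.14 and Irgm1, which restrains the other GTPases, -0.55 ± 0.15. Without Ctrl-LPS library 1 the GTPase median was -0.16 with 3 members lower, and with limma voom it was -0.02.

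Promoters were searched for the binding letters of the interferon complex, because members of the interferon lists were lower together. The letters GAAANNGAAA on either strand (TTTCNNTTTC as read in the gene's direction) were sought in the 250 bases before the start of each RefSeq gene, counting overlapping matches. They occurred in 2.98% of all 32851 promoter windows in the table, and in 936 of its 27025 genes (3.46%). They were in 13 of the 34 interferon-stimulated genes that had an entry, in 7 of 10 Ifi200 and DNA sensor genes, in 10 of 11 GTPase genes, in 3 of 19 class I genes, in 6 of 58 ribosomal protein genes, and in none of 18 homeostatic and none of 10 complement genes. A match is a description of these letters and shows neither binding nor a cause, and a gene without one may be bound elsewhere. The windows of 6 genes follow, in GRCm38.p6, 5′ to 3′ in the gene's direction, with matches in capitals.
Isg15 (chr4:156200819-156201068, minus strand): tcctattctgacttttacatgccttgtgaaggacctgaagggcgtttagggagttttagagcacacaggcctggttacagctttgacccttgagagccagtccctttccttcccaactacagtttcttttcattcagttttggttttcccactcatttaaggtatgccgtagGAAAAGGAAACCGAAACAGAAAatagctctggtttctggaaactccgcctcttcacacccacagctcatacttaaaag
Ifit3 (chr19:34583279-34583528, plus strand): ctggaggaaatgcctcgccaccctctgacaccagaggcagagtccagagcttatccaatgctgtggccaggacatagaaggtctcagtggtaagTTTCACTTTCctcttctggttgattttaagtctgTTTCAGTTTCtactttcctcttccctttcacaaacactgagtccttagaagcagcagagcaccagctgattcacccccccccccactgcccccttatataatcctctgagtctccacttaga
Rsad2 (chr12:26456453-26456702, minus strand): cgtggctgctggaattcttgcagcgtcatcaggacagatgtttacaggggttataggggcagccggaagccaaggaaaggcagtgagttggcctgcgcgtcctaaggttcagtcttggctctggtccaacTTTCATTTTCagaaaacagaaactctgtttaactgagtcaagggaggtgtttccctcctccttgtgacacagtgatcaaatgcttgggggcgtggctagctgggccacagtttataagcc
Ifi211 (chr1:173913047-173913296, minus strand): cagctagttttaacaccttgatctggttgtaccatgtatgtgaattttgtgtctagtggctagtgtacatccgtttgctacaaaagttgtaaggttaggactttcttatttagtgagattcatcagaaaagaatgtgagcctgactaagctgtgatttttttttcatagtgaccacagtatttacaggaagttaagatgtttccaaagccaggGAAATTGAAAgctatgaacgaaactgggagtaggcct
Gbp2 (chr3:142620413-142620662, plus strand): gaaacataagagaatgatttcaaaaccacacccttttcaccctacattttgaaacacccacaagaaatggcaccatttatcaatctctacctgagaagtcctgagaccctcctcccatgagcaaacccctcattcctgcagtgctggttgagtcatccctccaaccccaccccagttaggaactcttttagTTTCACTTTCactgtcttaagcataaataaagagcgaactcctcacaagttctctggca
H2-T23 (chr17:36032702-36032951, minus strand): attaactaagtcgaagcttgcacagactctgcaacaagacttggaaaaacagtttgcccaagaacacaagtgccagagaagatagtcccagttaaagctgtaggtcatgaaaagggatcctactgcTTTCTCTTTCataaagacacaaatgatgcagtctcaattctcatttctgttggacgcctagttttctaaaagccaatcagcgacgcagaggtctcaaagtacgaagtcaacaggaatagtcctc
Isg15 carries 3 overlapping matches, which start 78, 72 and 66 bases before the gene start, and Ifit3 has 2, at 156 and 122. Rsad2 has 1 at 120, H2-T23 1 at 124, Gbp2 1 at 59 and Ifi211 1 at 37 bases before the start. The log2 fold changes of Isg15, Ifit3, Rsad2, H2-T23, Gbp2 and Ifi211 were -1.53, -1.35, -1.41, -0.80, -1.0004 and -1.45 in that order. The 6 genes were picked by name and only windows with a match were printed, so that all 6 hold one was set beforehand. Whether genes with a match differed more than genes without one was not tested. Across lists the relation was not tested either. The GTPases, 10 of 11 with a match, had a median of -0.39, and the Ifi200 list, 7 of 10, had -0.79. The interferon-stimulated list, 13 of 34, had -0.85 and class I, 3 of 19, had -0.64. Ribosomal proteins, 6 of 58, had -0.57, complement, none of 10, had -0.46 and the homeostatic list, none of 18, had 0.08.

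Antigen presentation by MHC class I, which shows peptides of the cell's own proteins to CD8 T cells, was lower as well. Of 22 genes 16 were lower (72.7%) and none higher at an unadjusted p under 0.05, against 7.45% and 6.23% of all genes. Below 0 were 20 (50.9% of all genes), and the median was -0.64. In 11 of 22 every GW-LPS library was below every Ctrl-LPS library (6.24% of all genes). The list summed to 15730, 10811, 11899 and 13364 CPM in Ctrl-LPS and 11224, 8078 and 10328 CPM in GW-LPS, so its sums overlapped. The non-classical class I gene H2-T23 stood at 689, 421, 485 and 649.6 CPM in Ctrl-LPS and 347, 315 and 303 CPM in GW-LPS (-0.80 ± 0.17, adjusted p = 0.106). H2-K1 stood at 1534, 736, 724 and 929 CPM in Ctrl-LPS and 607, 416 and 522 CPM in GW-LPS (-0.93 ± 0.23), H2-D1 at 5235, 3075, 2794 and 4129 CPM in Ctrl-LPS and 2422, 2214 and 2073 CPM in GW-LPS (-0.77 ± 0.19), and B2m, the light chain of all class I molecules, at 4874, 2442, 2383 and 4291 CPM in Ctrl-LPS and 2079, 2011 and 1886 CPM in GW-LPS (-0.81 ± 0.28). All 4 were lower in every GW-LPS library, and Ctrl-LPS libraries 1 and 4 were highest in each. Psme1, a proteasome activator subunit gene that interferon induces, was -0.80 ± 0.20. Reads of H2-K1 and H2-D1 may be shared between near-identical copies. DESeq2 and limma voom called 6 of the 22 each, all lower. Without Ctrl-LPS library 1, 13 were lower at an unadjusted p under 0.05, without GW-LPS library 3 12, and with ribosomal protein levels as a covariate 14, where the median was -0.32. By length the class I median was -0.73 over 9 genes in the shortest quartile and -0.57 over 10 in the second.

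MHC class II, which presents engulfed antigen to CD4 T cells, was lower in some genes and intermixed in others. Of 10 genes 4 were lower at an unadjusted p under 0.05 and 6 below 0. Those included the peptide exchange genes H2-DMa (577, 429, 484 and 544 CPM in Ctrl-LPS and 393, 238 and 373 CPM in GW-LPS, -0.60 ± 0.21), H2-DMb1 (-0.46 ± 0.17) and H2-DMb2 (-0.53 ± 0.21), each with no overlap. The class II chain gene H2-Aa stood at 65.5, 25.9, 47.9 and 32.05 CPM in Ctrl-LPS and 28.6, 62.4 and 44.01 CPM in GW-LPS, with libraries of both groups intermixed (0.07 ± 0.42, unadjusted p = 0.867). The invariant chain gene Cd74 stood at 812, 355, 411 and 429 CPM in Ctrl-LPS and 246, 485 and 372 CPM in GW-LPS (-0.45 ± 0.38, unadjusted p = 0.248), and library 1 of Ctrl-LPS was the one far above the rest. Without GW-LPS library 3 none of the 10 was lower at that threshold, and 2 were without Ctrl-LPS library 1.

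Among the secreted signals that NF-kB and interferon induce, several were lower, and much of this rested on Ctrl-LPS library 1. Of 18 chemokine ligand genes 8 were lower (44.4%) and 1 higher (5.56%) at an unadjusted p under 0.05, against 7.45% and 6.23% of all genes. The list's median was -0.90. Without Ctrl-LPS library 1, 2 were lower and the median was -0.27, and without all 3 libraries of the series with raised neutrophil markers it was -0.27. Of the 18 genes, 14 lay in the shortest length quartile, with a median of -0.90. The list's sum was 4737, 1970, 1561 and 1956 CPM in Ctrl-LPS and 1361, 1989 and 1556 CPM in GW-LPS. Ccl5, a T cell attractant, stood at 41.04, 11.7, 9.75 and 16.4 CPM in Ctrl-LPS and 8.38, 4.57 and 4.63 CPM in GW-LPS (-1.75 ± 0.43, adjusted p = 0.173). Cxcl13, a B cell attractant, stood at 364, 141, 41.7 and 155 CPM in Ctrl-LPS and 27.04, 10.2 and 39.6 CPM in GW-LPS (-2.78 ± 0.74, adjusted p = 0.225). Neither overlapped, though Cxcl13 in Ctrl-LPS library 3 came within a few CPM of GW-LPS library 4. Ccl24, an eosinophil attractant of low level, was higher at 1.54, 2.97, 4.39 and 1.86 CPM in Ctrl-LPS and 3.65, 12.5 and 6.92 CPM in GW-LPS (1.51 ± 0.48), with overlap. Cxcl10, the interferon-induced attractant of T cells, stood at 74.1, 14.4, 11.02 and 8.695 CPM in Ctrl-LPS and 12.6, 3.99 and 11.8 CPM in GW-LPS. Only Ctrl-LPS library 1 was far above the others, and the difference was -1.51 ± 0.56 with that library and -0.27 without it.

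Of 36 cytokine and NF-kB genes 10 were lower (27.8%) and none higher at an unadjusted p under 0.05, against 7.45% and 6.23% of all genes. The median was -0.48, or -0.19 with 3 lower without Ctrl-LPS library 1, and 16 were lower without Ctrl-LPS library 3. By exonic length their median ran from -0.76 over 18 genes in the shortest quartile through -0.34 and -0.06 to 0.12 over 4 in the longest. Il18bp, the decoy receptor of interleukin-18, stood at 65.2, 21.99, 26.1 and 33.3 CPM in Ctrl-LPS and 12.8, 15.6 and 15.4 CPM in GW-LPS (-1.33 ± 0.34, adjusted p = 0.184), below Ctrl-LPS in every GW-LPS library. Casp4, the sensor caspase for intracellular LPS, stood at 31.1, 25.9, 20.8 and 29.8 CPM in Ctrl-LPS and 16.9, 20.2 and 20.2 CPM in GW-LPS (-0.49 ± 0.17). The interleukin-1 receptor antagonist gene Il1rn stood at 132, 10.9, 6.58 and 7.48 CPM in Ctrl-LPS and 5.98, 3.56 and 8.07 CPM in GW-LPS, with library 1 far above the other 6 (-2.73 ± 0.92, -0.51 without it). The interleukin-1 beta gene Il1b stood at 487, 184, 155 and 145 CPM in Ctrl-LPS and 157, 218 and 144 CPM in GW-LPS (-0.49 ± 0.61), and 0.10 without library 1, a change of sign. The tumour necrosis factor gene Tnf stood at 296, 110.5, 80.6 and 92.7 CPM in Ctrl-LPS and 66.2, 96.2 and 80.8 CPM in GW-LPS (-0.84 ± 0.43, unadjusted p = 0.0636), and -0.22 without that library.

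The receptors that sense LPS and other microbial patterns were mixed. Of 21 genes 4 were lower (19.0%) and 1 higher (4.76%) at an unadjusted p under 0.05, against 7.45% and 6.23% of all genes. The median was 0.04, and 2 were lower without Ctrl-LPS library 1, GW-LPS library 2 or GW-LPS library 4. Myd88, the shared adaptor of most Toll-like receptors, stood at 282, 242, 249.8 and 260.4 CPM in Ctrl-LPS and 188, 212 and 224 CPM in GW-LPS (-0.32 ± 0.10), with no overlap, and Tlr4, the LPS receptor gene, at 52.7, 90.8, 105 and 60.03 CPM in Ctrl-LPS and 106, 101 and 111 CPM in GW-LPS (0.46 ± 0.19), where GW-LPS libraries lay at the upper end of Ctrl-LPS. The difference of Tlr9, a DNA receptor gene, came from 1 library: it stood at 1.09, 1.499, 1.03 and 26.2 CPM in Ctrl-LPS and 2.43, 0.919 and 1.97 CPM in GW-LPS, and the log2 fold change was -2.07 ± 0.81 with Ctrl-LPS library 4 and 0.55 without it. In the Stat3 and Socs list, 2 of 13 were lower and 2 higher at an unadjusted p under 0.05. Each share was 15.4%, against 7.45% and 6.23% of all genes. The cytokine receptor gene Il6st was higher at 40.03, 63.6, 97.2 and 46.9 CPM in Ctrl-LPS and 142, 105 and 111 CPM in GW-LPS (0.95 ± 0.31), with no overlap. The feedback inhibitor gene Cish was at 7.61, 1.25, 0.3699 and 0.738 CPM in Ctrl-LPS and 0.281, 0.259 and 0.174 CPM in GW-LPS and Socs2 at 15.2, 2.58, 0.555 and 2.73 CPM in Ctrl-LPS and 1.18, 2.04 and 1.01 CPM in GW-LPS, both high in Ctrl-LPS library 1, without which none of the list was lower at that threshold.

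**Figure D3:**
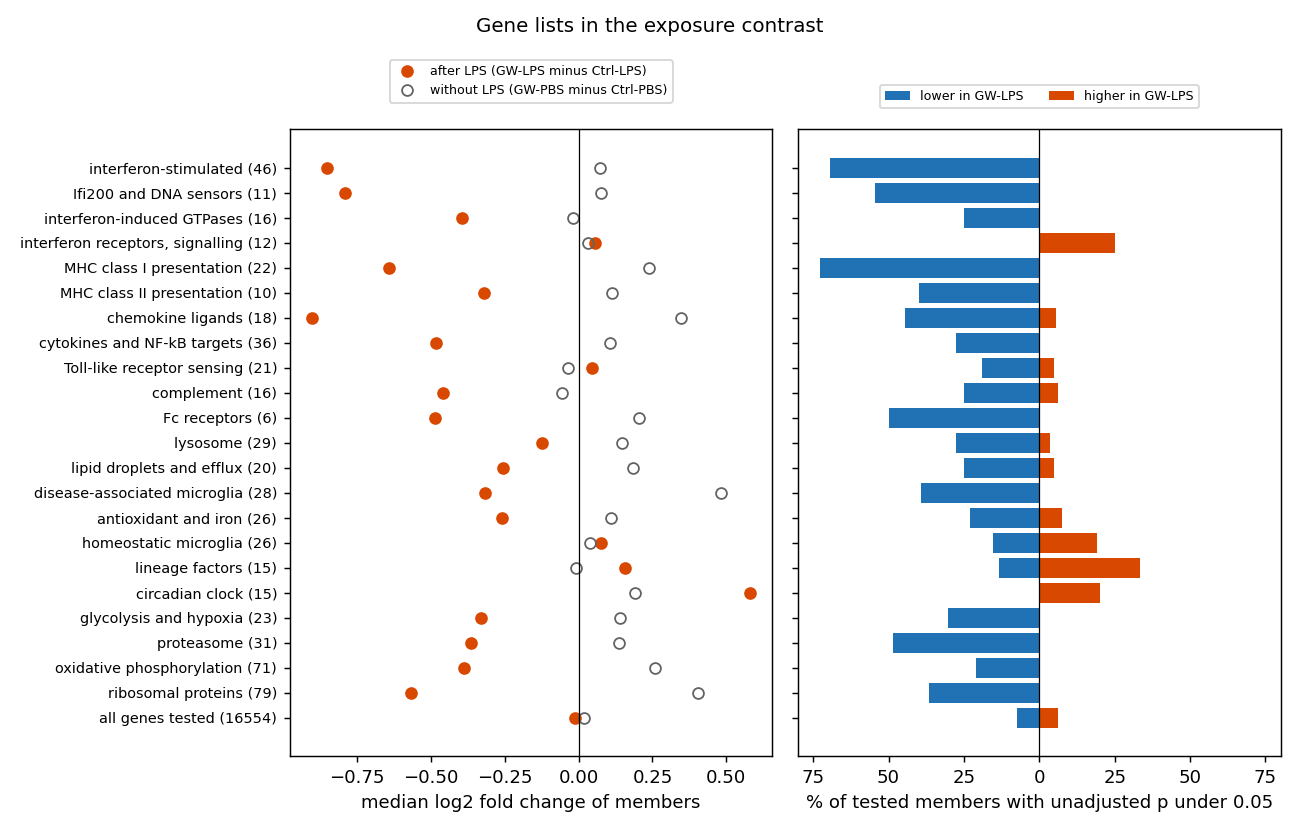
Left, median log2 fold change of the tested members of 22 gene lists and of all genes (x axis), after LPS (filled) and without LPS (open); the number of tested members is in brackets. Right, percentage of members lower (blue, to the left) or higher (orange, to the right) at an unadjusted p under 0.05 after LPS, where all genes gave 7.45% and 6.23%.

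Complement tags synapses and debris for uptake by microglia. Of 16 complement genes 4 were lower and 1 higher at an unadjusted p under 0.05 (median -0.46, or -0.18 without Ctrl-LPS library 1). The 3 chains of C1q, the initiator of the classical pathway, were all lower. C1qa stood at 11230, 8558, 8732 and 12300 CPM in Ctrl-LPS and 6607, 5911 and 7222 CPM in GW-LPS (-0.63 ± 0.19), C1qb at 26520, 19220, 17940 and 28400 CPM in Ctrl-LPS and 13800, 12660 and 14640 CPM in GW-LPS (-0.75 ± 0.19, adjusted p = 0.179) and C1qc at 16660, 12180, 12870 and 17960 CPM in Ctrl-LPS and 9831, 9411 and 9820 CPM in GW-LPS (-0.62 ± 0.17). In each chain every GW-LPS library was under every Ctrl-LPS library, and Ctrl-LPS libraries 1 and 4 were the highest. Of 6 Fc receptor genes 3 were lower at an unadjusted p under 0.05 and 5 below 0, and 1 was lower without Ctrl-LPS library 1 or 4 or GW-LPS library 2. The high-affinity IgG receptor gene Fcgr1 was -0.57 ± 0.19 and Fcgr4 -0.66 ± 0.29, both without overlap, and Fcgr3, at 7720, 6847, 5202 and 8702 CPM in Ctrl-LPS and 3669, 7107 and 4737 CPM in GW-LPS (-0.46 ± 0.20), overlapped through GW-LPS library 3.

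The disease-associated list holds genes that microglia raise in neurodegeneration and ageing. Of 28 genes 11 were lower (39.3%) and none higher at an unadjusted p under 0.05, against 7.45% and 6.23% of all genes. The median was -0.32, and 5 were lower without Ctrl-LPS library 1. By length the median ran from -0.79 over 13 genes in the shortest quartile through -0.60 and -0.22 to 0.09 over 2 in the longest. The lipid carrier gene Apoe stood at 18100, 14330, 8907 and 19300 CPM in Ctrl-LPS and 6743, 9318 and 6178 CPM in GW-LPS. Ctrl-LPS library 3 lay below GW-LPS library 3, so the groups overlapped (-1.03 ± 0.29, adjusted p = 0.243). The ferritin heavy chain gene Fth1 stood at 13120, 6811, 5094 and 9929 CPM in Ctrl-LPS and 4411, 4750 and 4698 CPM in GW-LPS (-0.92 ± 0.27), and the cystatin gene Cst7 at 158, 81.3, 62.04 and 127 CPM in Ctrl-LPS and 56.96, 44.9 and 52.6 CPM in GW-LPS (-1.06 ± 0.35), both without overlap. The lipid-sensing receptor gene Trem2 stood at 1130, 1058, 1265 and 1443 CPM in Ctrl-LPS and 1173, 868 and 1067 CPM in GW-LPS, intermixed (-0.24 ± 0.20, unadjusted p = 0.243). The light chain gene of ferritin, Ftl1, was -0.72 ± 0.21. In the antioxidant and iron list 6 of 26 were lower and 2 higher at an unadjusted p under 0.05. These were 23.1% and 7.69%, against 7.45% and 6.23% of all genes. Sod2, the mitochondrial superoxide dismutase that NF-kB induces, stood at 252, 75.95, 69.9 and 109 CPM in Ctrl-LPS and 60.2, 55.4 and 60.97 CPM in GW-LPS (-1.11 ± 0.30).

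Of 29 lysosome genes 8 were lower (27.6%) and 1 higher (3.45%) at an unadjusted p under 0.05, against 7.45% and 6.23% of all genes. Their median was -0.13. With limma voom 16 were lower, and 5 were without Ctrl-LPS library 1 or GW-LPS library 4. The median was -0.21 without GW-LPS library 3. Ctss, a lysosomal protease that trims the invariant chain, stood at 23810, 19560, 16770 and 23960 CPM in Ctrl-LPS and 12370, 14000 and 13130 CPM in GW-LPS (-0.68 ± 0.16, adjusted p = 0.158), with no overlap. Grn, the progranulin gene, was -0.31 ± 0.09, while Tfeb, the master transcription factor of lysosome genes, was higher at 46.2, 63.3, 70.7 and 60.2 CPM in Ctrl-LPS and 81.4, 77.2 and 76.6 CPM in GW-LPS (0.38 ± 0.12). Both had groups that did not overlap. In the lipid droplet and efflux list 5 of 20 were lower and 1 higher, including the droplet coat gene Plin2 (386, 228, 132 and 404 CPM in Ctrl-LPS and 134, 192 and 147 CPM in GW-LPS, -0.87 ± 0.28), where GW-LPS overlapped Ctrl-LPS library 3, and the cholesterol transfer gene Npc2 (-0.55 ± 0.17). Among inhibitory receptors and ligands 5 of 22 were lower (22.7%) and 1 higher (4.55%) at an unadjusted p under 0.05. The shares of all genes were 7.45% and 6.23%, and 2 of the 22 were lower without Ctrl-LPS library 1. Cd72, an inhibitory lectin receptor gene, stood at 168, 68.9, 73.9 and 87.5 CPM in Ctrl-LPS and 56.4, 26.2 and 43.9 CPM in GW-LPS (-1.24 ± 0.30, adjusted p = 0.173), and the galectin gene Lgals9 at 1484, 969, 868 and 1235 CPM in Ctrl-LPS and 744, 813 and 641 CPM in GW-LPS (-0.64 ± 0.16). Neither overlapped, and Slamf8, which limits NADPH oxidase activity, was -0.54 ± 0.19. Outside the lists, Ms4a6c, a membrane-spanning gene of monocytes and macrophages, stood at 407, 206, 121 and 384 CPM in Ctrl-LPS and 75.2, 102 and 106 CPM in GW-LPS (-1.56 ± 0.31, adjusted p = 0.106), and Ilk, an integrin-linked kinase gene, at 7.16, 6.75, 7.74 and 9.02 CPM in Ctrl-LPS and 3.73, 4.42 and 4.05 CPM in GW-LPS (-0.91 ± 0.19).

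Homeostatic genes had a median near 0, with members on both sides. Of 26 genes 4 were lower (15.4%) and 5 higher (19.2%) at an unadjusted p under 0.05, against 7.45% and 6.23% of all genes, with a median of 0.08. Every GW-LPS library lay below Ctrl-LPS in 6 and above it in 2 of them, against 6.24% and 6.29% of all genes. By length the homeostatic median was -0.11 over 11 genes in the shortest quartile and 0.11 over 8 in the second. It was 0.29 over 6 in the third and 0.32 for 1 in the longest. The count of higher members was 1 without Ctrl-LPS library 1, 2 without Ctrl-LPS library 4 or GW-LPS library 2, and 8 without GW-LPS library 3. The count of lower members was 2 without GW-LPS library 3. P2ry12 stood at 943, 1469, 1612 and 1388 CPM in Ctrl-LPS and 1787, 1397 and 1682 CPM in GW-LPS (0.26 ± 0.20, unadjusted p = 0.213), Tmem119 at 4386, 4640, 5554 and 4416 CPM in Ctrl-LPS and 5462, 4299 and 4966 CPM in GW-LPS (0.05 ± 0.12, unadjusted p = 0.688) and the fractalkine receptor gene Cx3cr1 at 2090, 2338, 3353 and 2010 CPM in Ctrl-LPS and 3182, 2281 and 2992 CPM in GW-LPS (0.20 ± 0.15, unadjusted p = 0.195). All 3 overlapped. The lower members included C1qa, given above, and the medium-chain fatty acid receptor gene Gpr84 (1005, 334, 358 and 304 CPM in Ctrl-LPS and 227, 259 and 244 CPM in GW-LPS, -1.04 ± 0.30), which inflammation induces. The higher ones included Tgfbr1, the receptor kinase of TGF-beta that maintains microglial identity. It stood at 248, 458, 502 and 312 CPM in Ctrl-LPS and 641, 841 and 635 CPM in GW-LPS (0.89 ± 0.25, adjusted p = 0.233), every GW-LPS library above Ctrl-LPS. Of 15 lineage factor genes 5 were higher (33.3%) and 2 lower (13.3%) at an unadjusted p under 0.05, and 13 were above 0. The shares of all genes were 6.23% and 7.45%. The 5 became 1 without Ctrl-LPS library 1 or 4 or with ribosomal protein levels as a covariate, and 2 without GW-LPS library 2. By length the lineage median was -0.37 over 3 genes in the shortest quartile and 0.15 for 1 in the second. It was 0.50 over 5 in the third and 0.26 over 6 in the longest. All protein-coding genes had medians of 0.12 and 0.18 in the third and longest quartiles. Mef2c was 0.32 ± 0.13, the identity factor gene Sall1 0.50 ± 0.22 and the TGF-beta effector gene Smad3 0.53 ± 0.22, with libraries overlapping in each. The 2 lower ones were Cebpb, an inflammatory factor gene, at 1349, 817, 627 and 1028 CPM in Ctrl-LPS and 428, 664 and 446 CPM in GW-LPS (-0.90 ± 0.29), and Spi1, the PU.1 gene of the myeloid lineage, at -0.37 ± 0.14. The uptake receptor genes Mertk (224, 377, 379 and 299 CPM in Ctrl-LPS and 432, 544 and 451 CPM in GW-LPS, 0.57 ± 0.24) and Mrc1 (22.7, 34.4, 48.1 and 37.0 CPM in Ctrl-LPS and 49.4, 75.5 and 80.2 CPM in GW-LPS, 0.94 ± 0.31) were higher in every GW-LPS library. They were the 2 higher genes at an unadjusted p under 0.05 in a list of 17 (11.8%, against 6.23% of all genes). Of the 17, 1 was lower (5.88%, against 7.45%) and 9 were above 0, and 5 were higher at that threshold without GW-LPS library 2. Mrc1 is also a border macrophage marker, and of the 12 such markers 2 were lower and 2 higher. Their sum was 346 to 510 CPM in Ctrl-LPS and 437 to 706 CPM in GW-LPS. What part such cells have in the Mrc1 difference was not tested.

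**Figure D4:**
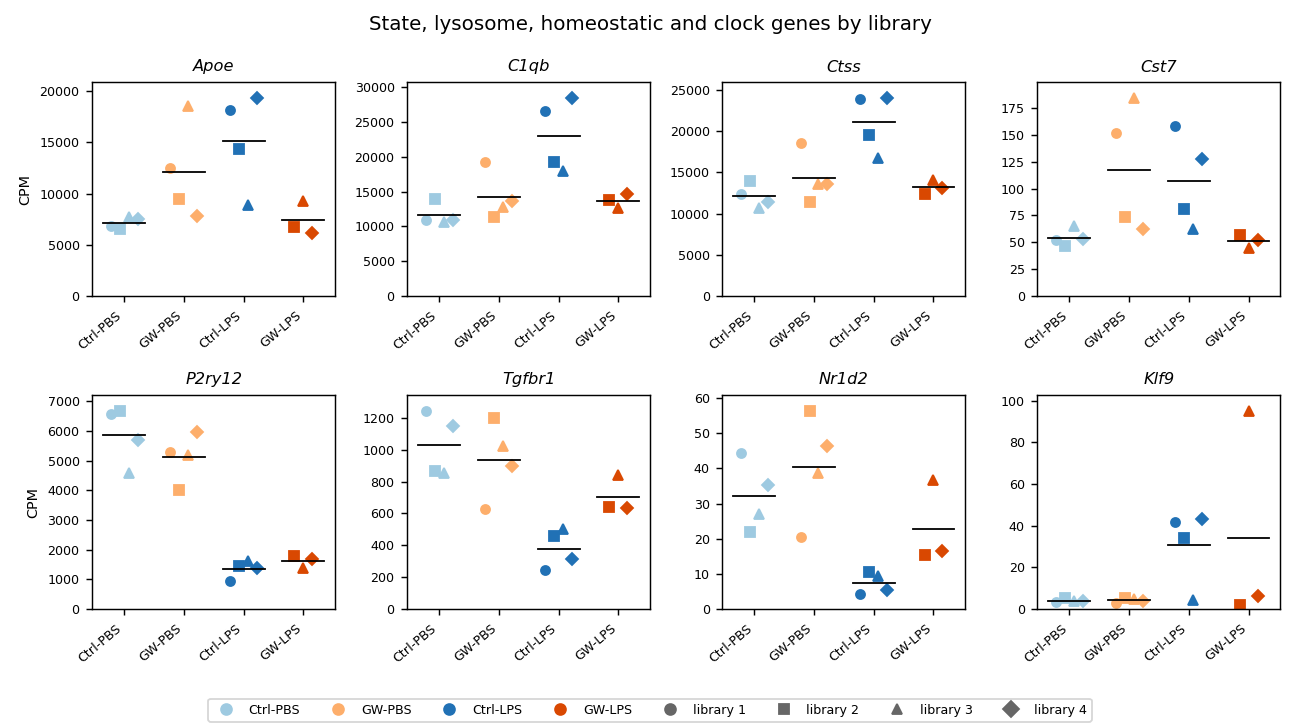
CPM (y axes, linear, from 0) of 8 further genes in the 15 libraries of the 4 groups without CBD (x axis); marker shape gives the library number and the black line the group mean. C1qb, Ctss and Cst7 are lower and Tgfbr1 and Nr1d2 higher in every GW-LPS library than in every Ctrl-LPS library, Apoe and P2ry12 overlap, and Klf9 splits both LPS groups.

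Genes of protein synthesis, protein breakdown and energy production were lower as lists by small amounts, and these counts moved most with single libraries. Of 79 ribosomal protein genes 29 were lower (36.7%) and none higher at an unadjusted p under 0.05, against 7.45% and 6.23% of all genes. Below 0 were 78 (median -0.57). The list summed to 13229, 8049, 8665 and 11582 CPM in Ctrl-LPS and 8047, 6500 and 8904 CPM in GW-LPS, with overlap. The count of lower members was 4 without Ctrl-LPS library 1, 4 without GW-LPS library 3, 10 without Ctrl-LPS library 4 and 48 without Ctrl-LPS library 2. Rpl3 stood at 625, 399.8, 412 and 588 CPM in Ctrl-LPS and 342, 307 and 368 CPM in GW-LPS (-0.58 ± 0.17) and Rpl14 at 225, 131, 129 and 186 CPM in Ctrl-LPS and 102, 87.99 and 105 CPM in GW-LPS (-0.77 ± 0.24). Ribosomal protein genes have many processed copies and short transcripts, 62 of the 79 in the shortest quartile, where all protein-coding genes had a median of -0.28 and these 62 had -0.56. Of 31 proteasome genes 15 were lower (48.4%, against 7.45% of all genes) and all 31 below 0 (median -0.36). The lower ones were 3 without Ctrl-LPS library 1 or GW-LPS library 3 and 26 without Ctrl-LPS library 2. The catalytic subunit gene Psmb7 was -0.66 ± 0.22. Of 71 oxidative phosphorylation genes 69 were below 0 (median -0.39) and 15 lower (21.1%, against 7.45% of all genes). That count was 1 without GW-LPS library 3, 2 without Ctrl-LPS library 1, 4 without Ctrl-LPS library 4 and 29 without Ctrl-LPS library 2, and with ribosomal protein levels as a covariate the median turned to 0.04. In the shortest length quartile lay 55 of the 71, with a median of -0.39, and 14 of the proteasome genes, with -0.38. Sdhd, a subunit gene of succinate dehydrogenase, was -0.50 ± 0.18. In the glycolysis and hypoxia list 7 of 23 were lower (30.4%, against 7.45% of all genes) and none higher (median -0.33). The lower ones were 2 without Ctrl-LPS library 1 or GW-LPS library 3 and 4 without Ctrl-LPS library 4. Among the 7 lower with all libraries were the enolase gene Eno1 (1886, 1083, 1208 and 1488 CPM in Ctrl-LPS and 1070, 773 and 954 CPM in GW-LPS, -0.60 ± 0.17), Aldoa (-0.60 ± 0.19) and the pyruvate kinase gene Pkm (-0.67 ± 0.25).

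Of the 12 higher genes with the smallest p, 1 was a member of a gene list, the clock gene Nr1d2. The smallest p belonged to Atl2, an endoplasmic reticulum GTPase gene, at 16.2, 20.9, 18.7 and 15.1 CPM in Ctrl-LPS and 23.4, 35.2 and 26.6 CPM in GW-LPS (0.68 ± 0.14, adjusted p = 0.118). Camsap2, which protects microtubule minus ends, stood at 6.03, 8.08, 11.2 and 7.06 CPM in Ctrl-LPS and 15.8, 18.2 and 17.7 CPM in GW-LPS (1.09 ± 0.24), Tmx3, a thioredoxin-related transmembrane gene, at 0.60 ± 0.15, Srpk3, a splicing factor kinase gene, at 0.998 ± 0.26 and Kbtbd2, a ubiquitin ligase adaptor gene, at 0.61 ± 0.16. All of these were higher in every GW-LPS library. The sorting protein gene Gprasp1 stood at 5.93, 11.5, 14.7 and 6.35 CPM in Ctrl-LPS and 27.4, 11.2 and 26.2 CPM in GW-LPS (1.16 ± 0.31), with GW-LPS library 3 inside the Ctrl-LPS range. The other 5 of the 12 were Zfp62 (0.92 ± 0.23), Zfp873 (0.74 ± 0.18), Zik1 (1.07 ± 0.27), Zbtb44 (0.61 ± 0.15) and Zfp974 (1.04 ± 0.27), each higher in every GW-LPS library. Clock genes had the highest median of the 46 lists, 0.58 over 15 genes, 12 of them above 0 and 3 higher at an unadjusted p under 0.05. Nr1d2, the Rev-erb beta repressor of the clock, stood at 4.21, 10.4, 9.43 and 5.39 CPM in Ctrl-LPS and 15.3, 36.8 and 16.4 CPM in GW-LPS (1.63 ± 0.37, adjusted p = 0.144), and Clock at 9.37, 12.2, 9.54 and 7.92 CPM in Ctrl-LPS and 14.9, 16.7 and 15.5 CPM in GW-LPS (0.69 ± 0.23), both without overlap. Nr1d1, at 2.63, 1.999, 1.82 and 1.54 CPM in Ctrl-LPS and 3.22, 10.8 and 2.58 CPM in GW-LPS (1.47 ± 0.46), was carried by GW-LPS library 3. Without that library the list's median was 0.14, with 2 lower and 2 higher, and with limma voom and all libraries it was 0.19. By length the clock median was -0.41 for the 1 gene in the shortest quartile, 0.68 over 3 and 0.70 over 7 in the middle ones and 0.57 over 4 in the longest. Collection times of the day are not in the labels, and their part was not tested.

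The exposure contrast without LPS is given side by side. GW-PBS against Ctrl-PBS gave no called gene in edgeR (0.0%), nor with DESeq2 or limma voom, and 621 genes at an unadjusted p under 0.05 (3.75%), 253 higher (1.53%) and 368 lower (2.22%). Neutrophil markers summed to 28362 CPM in Ctrl-PBS library 3, against a group median of 654 CPM, and the count was 478 without that library and 1068 without GW-PBS library 2. The interferon list had a median of 0.07 with 15 of 46 below 0, the class I list 0.24, and the ribosomal protein list 0.40 with 77 of 79 above 0. All 28 disease-associated genes were above 0 (median 0.48), 15 of them at an unadjusted p under 0.05. Apoe was 0.75 ± 0.26 and Cst7 1.11 ± 0.32 in that contrast. The difference between both exposure contrasts was tested as an interaction. In edgeR it called no gene (0.0%), the minimum adjusted p being 0.211. An unadjusted p under 0.05 was seen for 2099 genes (12.7%), 1370 below 0 (8.28%) and 729 above 0 (4.4%). That count was 1219 without GW-PBS library 1 and 3446 without GW-PBS library 2. DESeq2 called 57 of 16570 genes (0.344%) and limma voom 111 (0.671%). All 46 interferon-stimulated genes had an interaction below 0 (median -0.94), 28 of them at an unadjusted p under 0.05. The same held at that threshold for 61 of 79 ribosomal protein genes, 17 of 28 disease-associated genes and 16 of 22 class I genes. How these list counts depend on single libraries was not tested. In GW-PBS the ribosomal protein sum had a median of 6895 CPM and a maximum of 11169 CPM, against 5414 to 7266 CPM in Ctrl-PBS. The disease-associated sum had a median of 66034 CPM and a maximum of 83685 CPM in GW-PBS. For Rtp4 the interaction was -1.93 ± 0.41 (adjusted p = 0.211), for H2-K1 -1.43 ± 0.31 (adjusted p = 0.211) and for Apoe -1.78 ± 0.39 (adjusted p = 0.211). Mean levels of Rtp4 were 39.5 ± 9.85 CPM in Ctrl-PBS, 161 ± 75.99 in Ctrl-LPS, 45.4 ± 11.3 in GW-PBS and 48.4 ± 16.2 in GW-LPS (SD, n = 4, 4, 4 and 3). For Ifi204 they were 24.6 ± 3.503, 144 ± 40.2, 30.1 ± 6.86 and 62.2 ± 8.36 CPM in the same order. Exposed mice that had received cannabidiol before LPS (GW-CBD-LPS, n = 4) had 63.4 ± 13.6 CPM of Rtp4 and an interferon list sum of 4956 to 6878 CPM.

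**Figure D5:**
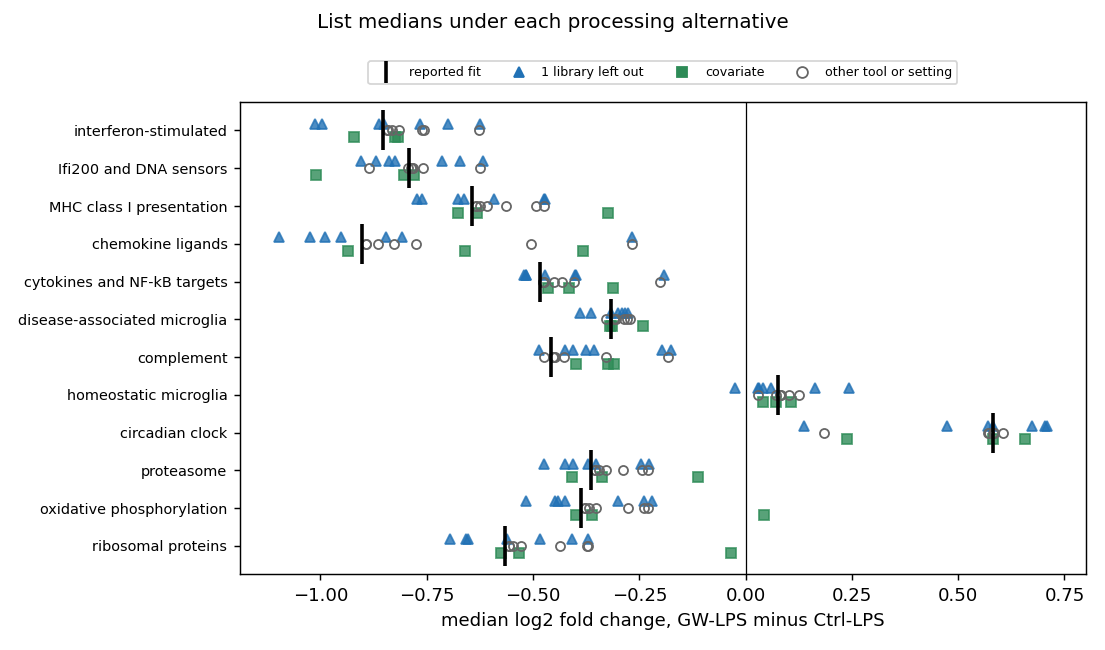
Median log2 fold change of GW-LPS minus Ctrl-LPS (x axis) for 12 gene lists (y axis) in the reported fit (black bar), with 1 library left out (triangles), with a covariate (squares) and with other tools or settings (open circles). The medians of the interferon-stimulated, Ifi200 and class I lists stay below 0 throughout, leaving out Ctrl-LPS library 1 brings the chemokine median to -0.27 and leaving out GW-LPS library 3 the clock median to 0.14, and with the ribosomal covariate the medians are -0.03 for ribosomal proteins and 0.04 for oxidative phosphorylation. That covariate is the sum of the ribosomal list itself, so the shift of the ribosomal median was built in.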

How the data were processed

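The deposited table holds whole-number counts of reads per gene for 54532 genes in 22 libraries, aligned by the authors to GRCm38 (mm10), per the labels. Which aligner, counter, strand option and annotation were used is not given in the sources used here. Reads of antisense partners, overlapping genes and close copies may therefore be split wrongly. Stranded poly(A) libraries were made from RNA of an integrity number of at least 8.5, per the labels' protocols. Date-like symbols of 27 genes were restored by identifier, and 103 symbols that occur more than once were kept separate. Coordinates and exonic lengths come from GENCODE M21, which held 54495 of the identifiers. Promoters come from RefSeq (GRCm38.p6).

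Differences were tested in R 4.3.3 by the quasi-likelihood test of edgeR 4.0.16, with TMM factors of 0.878 to 1.06 and genes kept by filterByExpr. A single model with 6 group means took all 22 libraries, so the spread is estimated jointly (common BCV 0.352). Tests were two-sided, and p-values were adjusted by Benjamini-Hochberg, with a threshold of 0.05. The 16554 genes kept held at least 99.9% of the counts of each library. Single-gene CPM use the TMM factors, and list sums use library totals. Values after ± are SE for log2 fold changes and SD for means. Counting depth was alike in all libraries (28676930 to 40458326 counts), and intervals cover the spread between libraries. The test was tried on simulated counts.

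Members, lists and tests were chosen with earlier results of these data known. Named genes were, since fewer than 20 were called, the 12 higher and 12 lower with the smallest unadjusted p (mean of at least 5 CPM, no predicted genes or pseudogenes), the 3 members of each pathway or state list with the smallest p where it was under 0.05, and 12 index genes. This named 109 genes, of which 16 are not printed. B2m, H2-D1, Ifi35, Ifitm3, Irf7, Irf9, Isg15, Lgals3bp, Ly6e, Rsad2, Slfn2, Zbp1, Mef2c, Sall1 and Smad3, and the genes given by level alone (Klf9, Fkbp5, Hspa8, S100a8, Ly6g), were picked with their values in view. The alternatives tried were RLE size factors, no filter, DESeq2 1.42.0, limma 3.58.1 voom with quality weights, the library number as a block, each library left out, no libraries with raised neutrophil markers (Ctrl-PBS 3, Ctrl-LPS 1 and GW-PBS 1), the compared groups alone and the ribosomal protein sum as a covariate. Covariates of the heat shock and neutrophil sums were chosen after seeing the data. Figures were drawn with matplotlib 3.10.9.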

Additional observations from a re-analysis of the deposited data

Results flagged for a closer look

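In the 4 Ctrl-LPS libraries, 162 levels (of genes given here and of list sums) were compared for a single library far from the other 3, which chance gives in about 1 of 20 groups, and 18 had one. GW-LPS, with 3 libraries, was not examined this way. Library 1 accounted for 14 of them. It was high for Gbp2 (74.19 CPM), Cd74 (811.7 CPM), Cxcl10 (74.09 CPM), Il1rn (131.5 CPM), Il1b (486.6 CPM), Tnf (295.7 CPM), Cish (7.61 CPM), Socs2 (15.19 CPM) and Gpr84 (1005.0 CPM). It was also high for the neutrophil genes S100a8 (469.0 CPM) and Ly6g (4.56 CPM), and for the sums of the chemokine ligands (4736.97 CPM), the neutrophil markers (3113.55 CPM) and the monocyte markers (827.04 CPM). With the neutrophil marker sum as a covariate the log2 fold change was -1.76 for Il1rn (-2.73 without it), -0.19 for Il1b (-0.49) and -1.17 for Cxcl10 (-1.51), and 7 chemokine and 9 cytokine and NF-kB genes were lower at an unadjusted p under 0.05 (8 and 10). Library 3 was high for the sums of heat shock (6797.96 CPM), endoplasmic reticulum and integrated stress (6309.56 CPM) and B cell markers (574.67 CPM), and library 4 for Tlr9 (26.21 CPM).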

How the results depend on the processing

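In GW-LPS against Ctrl-LPS, 0 genes passed with RLE factors, the replicate block, the compared groups alone and every covariate, 5 without a filter, 135 with DESeq2, 324 with limma voom and 0 to 75 with 1 library left out. The 30 without Ctrl-LPS library 2 and 75 without Ctrl-LPS library 3 were the only calls among those 7 fits. Genes at an unadjusted p under 0.05 numbered 3675 with limma voom, 1354 without the 3 libraries with raised neutrophil markers, 1044 with the ribosomal covariate and 1078 to 3026 with 1 library left out. The interaction called 57 genes with DESeq2, 111 with limma voom and 0 to 13 with 1 library left out, its genes at an unadjusted p under 0.05 numbered between 854 and 3588 in all settings (478 to 1311 in the contrast without LPS), and the contrast without LPS called 0 throughout. For the members lower at an unadjusted p under 0.05, the counts with 1 library left out were 2 to 11 for chemokines, 5 to 13 for disease-associated genes, 4 to 48 for ribosomal proteins, 1 to 29 for oxidative phosphorylation and 3 to 26 for the proteasome. Without the 3 libraries they were 2, 6, 13, 3 and 5 in that order, and with the ribosomal covariate 2, 2, 11, 2 and 4, where the oxidative phosphorylation median was 0.0431. The ribosomal covariate is made from the ribosomal protein genes, so the fall in their own count was built in. With the compared groups alone the counts were 4 for chemokines, 9 for oxidative phosphorylation and 7 for the proteasome. The interferon list had between 25 and 37 lower members and a median between -1.01 and -0.62 in all settings, and the class I list between 12 and 17. The homeostatic median ran from -0.0251 to 0.2437 with 1 library left out. H2-Aa ran from -0.2106 to 0.3494, Tlr9 from -2.4286 to 0.5539, Tmem119 from -0.0278 to 0.1552 and Il1b from -0.6685 to 0.1014, and Il1b was 0.0948 without the 3 libraries. Of the 1836 values of single genes under the alternatives 1829 had the reported direction. Most of these genes were chosen by their p in the same libraries, and the settings share most libraries. Agreement in direction was therefore likely from the start and is no independent check. The cause of these changes was not tested.

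Library numbers 2, 3 and 4 occur in both groups, but same-numbered libraries deviated together with correlations of 0.014, -0.198 and 0.042, so the numbers were not taken as pairs. With the replicate block 0 genes were called, and lower members numbered 5 for chemokines, 14 for ribosomal proteins, 8 for oxidative phosphorylation and 6 for the proteasome. Depth was alike in the 3 and 4 libraries compared, and the common coefficient of variation over all 22 was 0.352.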
